A study of Mus musculus with 93 samples.

Results

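The 9 genes described here encode hepatocyte identity transcription factors: Hnf4a, Foxa1, Foxa2, Foxa3, Cebpa, Cebpb, Onecut1, Prox1, and Zhx2. They were chosen by name, each matched 1 row of the 53465 genes in the count table, and 9 of 9 passed the filter that left 19110 genes for testing. Liver RNA of 93 male mice was sequenced, from 7 inbred strains fed a control diet (CD, 10% of kcal from fat) or a Western diet (WD, 40% of kcal from fat). All mice were moved to 30°C, which is thermoneutral for mice, at 6 wk of age, started their diet at 7 wk, stayed on it for 17 wk, and were killed at 24 wk after a short fast, so the mice on CD had been at thermoneutrality as well. The groups held 8 C57BL/6J mice on CD and 8 on WD, 6 and 7 DBA/2J, 5 and 6 A/J, 7 and 6 129S1/SvImJ, 6 and 6 WSB/EiJ, 7 and 8 CAST/EiJ, and 6 and 7 PWK/PhJ. Each library was a bulk sample of whole liver.

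The number of reads on genes per mouse lay between 40020424 and 49894856, with a median of 46618609. Each strain came from more than 1 cohort, and the cohorts of WSB/EiJ, 6 and 7, held no other strain, so that WSB/EiJ cannot be told apart from its cohorts. Reads of all strains had been mapped to the C57BL/6J genome, and on CD the share of reads that did not map was 2.23% ± 0.33 (SD, n = 8) in C57BL/6J and 10.8% ± 1.66 (SD, n = 7) in CAST/EiJ. It also moved with the diet, from 3.50% on CD to 7.88% on WD in PWK/PhJ, from 4.52% to 7.42% in WSB/EiJ, and from 6.45% to 4.77% in DBA/2J. Its part in differences between strains or diets was not tested. The 8 hepatocyte markers summed to between 54950 and 205352 CPM (counts scaled to the normalized library size) in every mouse, and the 5 cholangiocyte markers to between 4.66 and 68.8 CPM. The library of C57BL/6J on CD, replicate 2, was least like its group, with a median correlation of 0.922 with the other libraries of its group over 11149 genes, and the next lowest library had 0.963. Where a call of a member changed without it, this is stated. Marker and list counts were not redone without it. Without it, Cebpa also passed for the diet in A/J (-0.31, adjusted p = 0.0349 by limma) and Prox1 for the mean diet effect (-0.15, adjusted p = 0.0334).

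Hepatocytes keep their identity through a network of transcription factors that bind the promoters and enhancers of liver genes and of each other. HNF4α is a nuclear receptor at the center of this network and drives apolipoprotein, clotting factor, and bile acid genes. FOXA1, FOXA2, and FOXA3 are forkhead factors that open chromatin in the early liver and later act on glucose and lipid genes. C/EBPα supports gluconeogenesis and the quiescent state of adult hepatocytes, whereas C/EBPβ is induced by inflammation, fasting, and regeneration. HNF6, encoded by Onecut1, belongs to the Onecut family. PROX1 is a homeodomain factor that also represses the activity of HNF4α, and ZHX2 keeps fetal genes such as Afp, the gene of α-fetoprotein, silent after birth.

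On GRCm38, GENCODE M21 places Prox1 at chr1:190118035-190170714, Foxa2 at chr2:148042877-148046969, Hnf4a at chr2:163506808-163572910, Cebpb at chr2:167688915-167690418, and Foxa3 at chr7:19013284-19023538. It places Cebpa at chr7:35119293-35121928, Onecut1 at chr9:74861921-74891781, Foxa1 at chr12:57540628-57546916, and Zhx2 at chr15:57694665-57839832. Cebpa and Cebpb are single-exon genes, and all 9 are protein coding.

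Promoter sequence is shown for 3 members whose upstream bases hold a core motif of another member, read from RefSeq windows of GRCm38.p6 that covered 8 of the 9 members. Zhx2 had no window in this table. Bases are 5′ to 3′ on the strand of the gene and in lower case, with the motif in capitals. Each stretch ends before the start site or, where sooner, before the first annotated exon base in its window. The Foxa1 window lies before the RefSeq start but inside the span that GENCODE M21 gives the gene, downstream of its first exon base.

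Foxa1, chr12:57546122-57546361, minus strand: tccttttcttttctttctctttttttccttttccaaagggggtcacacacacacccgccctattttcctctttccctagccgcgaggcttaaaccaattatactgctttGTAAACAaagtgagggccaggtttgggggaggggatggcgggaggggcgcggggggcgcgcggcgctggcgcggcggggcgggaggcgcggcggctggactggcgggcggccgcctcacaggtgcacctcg
Foxa2, chr2:148046970-148047219, minus strand: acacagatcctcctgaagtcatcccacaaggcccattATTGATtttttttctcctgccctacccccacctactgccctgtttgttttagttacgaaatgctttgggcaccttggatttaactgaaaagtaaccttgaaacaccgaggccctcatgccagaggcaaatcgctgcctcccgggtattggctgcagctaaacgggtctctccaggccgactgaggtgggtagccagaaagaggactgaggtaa
Hnf4a, chr2:163506607-163506807, plus strand: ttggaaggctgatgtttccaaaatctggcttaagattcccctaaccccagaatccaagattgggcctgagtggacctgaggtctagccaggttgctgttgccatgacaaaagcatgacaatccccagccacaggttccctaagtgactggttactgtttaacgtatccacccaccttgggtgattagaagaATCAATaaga

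The capitals mark the forkhead core TGTTTAC in Foxa1, on the opposite strand, with its first base at -141 from the start site. They mark the Onecut core ATTGAT in Foxa2 at -213, on the strand of the gene, and in Hnf4a at -59, on the opposite strand. For each gene the window of the most upstream start is shown. The other windows, with starts at 148045948 and 148045464 for Foxa2 and at 163547155 for Hnf4a, held none of the motifs searched. Which start the liver used was not tested. Over the 250 bases before the start, on both strands, TGTTTAC was in 3.17% and ATTGAT in 6.72% of all 32851 windows. The C/EBP core TTGCNNAA (9.56% of all windows), the STAT5 and BCL6 palindrome TTCNNNGAA (7.02%), and the HNF4 element CAAAGTCCA (0.384%) were in 0 of the 12 windows of the members. No 2 of these matches overlapped.

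The members spanned a wide range of levels. Per length, on the RPKM scale, Cebpa (157 ± 37.3, SD, n = 93) and Hnf4a (126 ± 26.2) were the most abundant, followed by Cebpb (44.7 ± 21.9), Foxa3 (24.2 ± 8.27), Prox1 (23.0 ± 6.12), Foxa2 (12.1 ± 4.35), Foxa1 (8.50 ± 2.74), Zhx2 (4.69 ± 0.708), and Onecut1 (4.33 ± 3.18). The annotation places the lincRNA Gm20649 on the same strand over 52.8% of the exon length of Onecut1, and Gm20649 was listed at 0 counts in every mouse, so the level of Onecut1 per length can be understated. Tmem189 lies on the opposite strand over 20.7% of the exon length of Cebpb, with a count of up to 59.3% of that of Cebpb in a mouse, and the strand setting of the counting is not given in the sources used here. Of the other genes across members, Prox1os, the antisense gene of Prox1, reached at most 5.41% of the count of its partner in any mouse.

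The members also differed in how steady they were. Zhx2 varied least, from 14.8 to 33.9 CPM over all mice, which is a ratio of 2.30 between the highest and the lowest mouse. Hnf4a ran from 407 to 960 CPM, a ratio of 2.36. Onecut1 ran from 1.71 to 64.4 CPM, a ratio of 37.6, and its median coefficient of variation within a group was the largest of the 9, as the plot of every mouse shows.

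**Figure D1:**
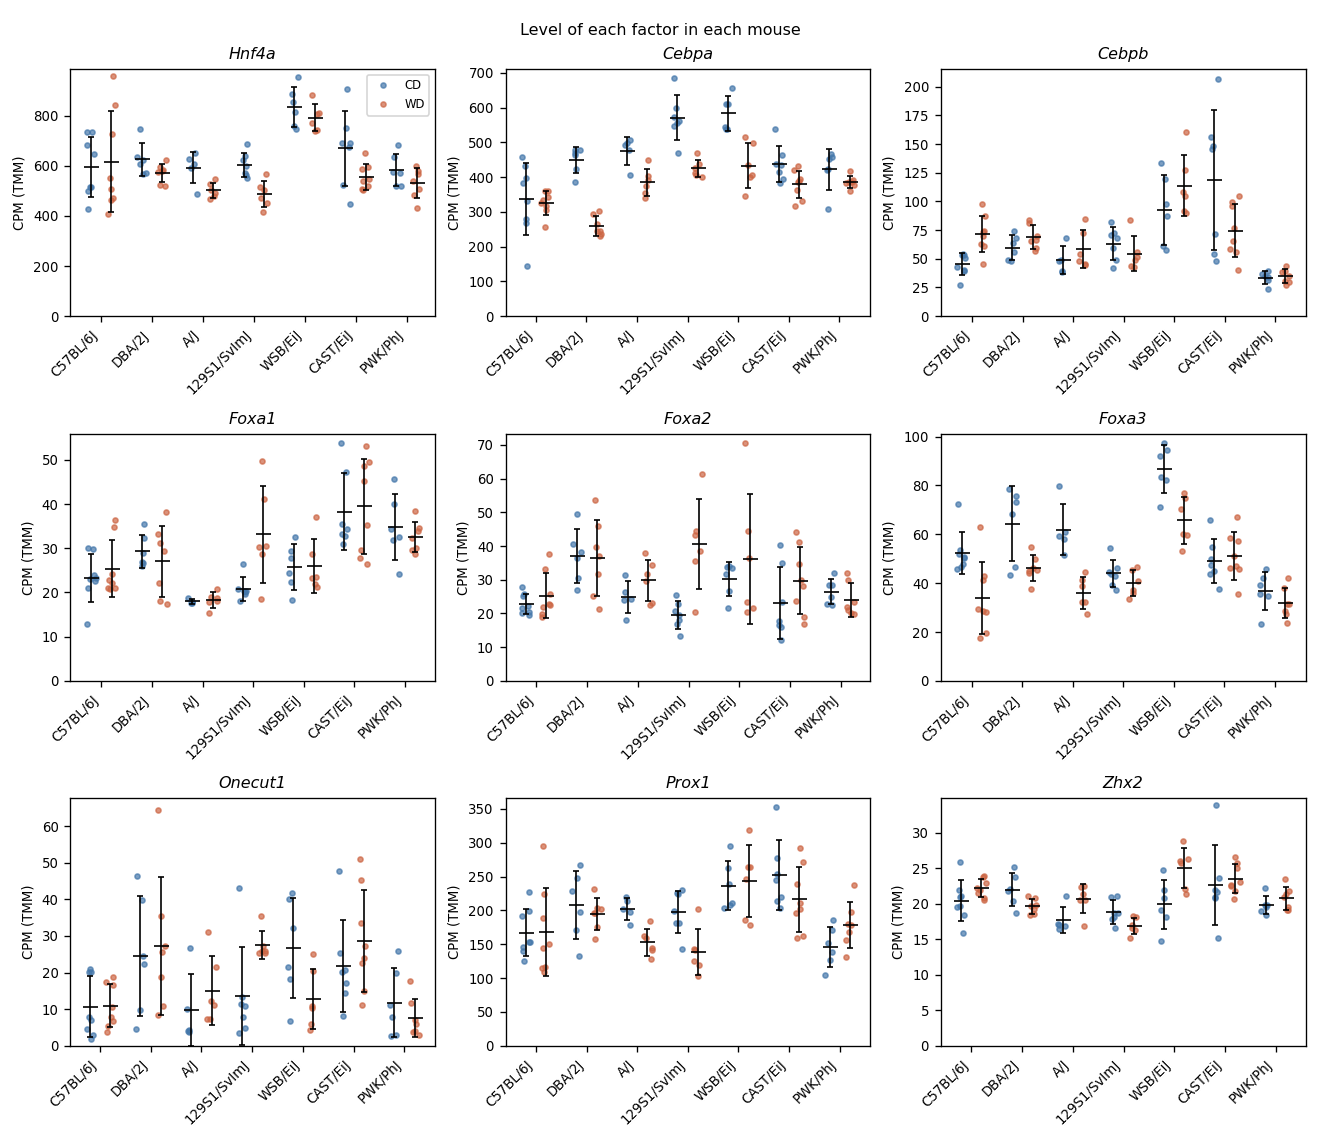
Level of each of the 9 genes in every mouse, in CPM after TMM normalization on a linear axis, with 1 point for each mouse, by strain on the x axis and diet by color (blue CD, orange WD). The black bars give the mean ± SD of each group of 5 to 8 mice. Cebpa was lower on WD with no overlap in DBA/2J, 129S1/SvImJ (where the ranges nearly touched), and WSB/EiJ, and Onecut1 spread widely within almost every group.

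To ask how the diet moved these factors, the diets were contrasted strain by strain with limma-voom over all 19110 genes. Of the 63 tests of 9 members in 7 strains, 14 passed an adjusted p below 0.05, 5 higher and 9 lower on WD. By strain, 6 of 9 members passed in 129S1/SvImJ, where 28.0% of all tested genes did. In C57BL/6J, 2 members passed (26.2% of all genes), as did 2 in DBA/2J (18.0%) and 2 in WSB/EiJ (8.94%). A/J had 1 (9.03%) and CAST/EiJ 1 (19.5%). PWK/PhJ had 0 of 9, where 29.6% of all genes passed. The smallest adjusted p of a member in that strain was that of Prox1 (0.187, log2 fold change 0.29 ± 0.16).

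**Figure D2:**
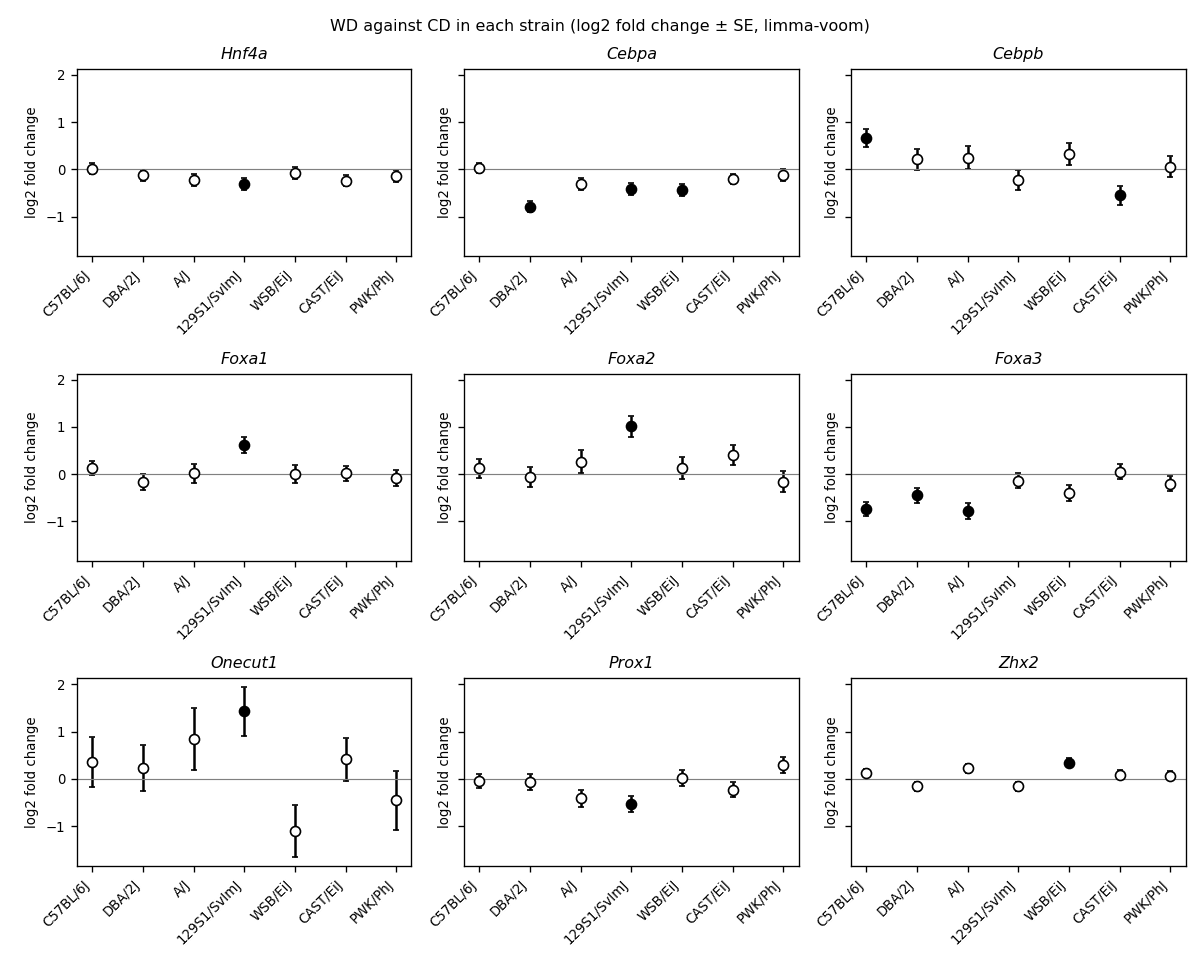
Log2 fold change of WD against CD (y axis) with its SE from limma-voom in each strain (x axis), 1 panel for each gene. Filled points passed an adjusted p below 0.05 over all genes. 129S1/SvImJ holds 6 of the 14 filled points and PWK/PhJ 0.

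Cebpa was lower on WD in 3 strains. In DBA/2J its level on CD ran from 386 to 477 CPM, with a median of 467, and on WD from 232 to 301, with a median of 246. Every DBA/2J mouse on WD was below every mouse on CD, and the log2 fold change was -0.79 ± 0.12 (SE, adjusted p = 2.63e-07). In 129S1/SvImJ it ran from 468.7 to 685 CPM on CD (median 561) and from 402 to 468.6 on WD (median 420). These ranges nearly touched without overlap (log2 fold change -0.42 ± 0.12, adjusted p = 0.00582). In WSB/EiJ it ran from 538 to 658 CPM on CD (median 577) and from 344 to 515 on WD (median 421). These groups did not overlap either (-0.44 ± 0.12, adjusted p = 0.0131). In C57BL/6J, by contrast, the log2 fold change was 0.02 ± 0.11 (adjusted p = 0.924). The CD group of that strain holds replicate 2, whose Cebpa was 144 CPM.

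Cebpb, the inflammation-responsive family member, moved in opposite directions in a pair of strains. In C57BL/6J it ran from 27.6 to 54.6 CPM on CD (median 46.5) and from 45.8 to 97.8 on WD (median 71.7). All but the lowest mouse on WD were above every mouse on CD, and the log2 fold change was 0.66 ± 0.20 (adjusted p = 0.00788). With sample quality weights its adjusted p was 0.0563. In CAST/EiJ it ran from 48.2 to 207 CPM on CD (median 146) and from 40.6 to 105 on WD (median 70.9). The CAST/EiJ ranges overlapped widely, and the log2 fold change was -0.55 ± 0.21 (adjusted p = 0.0479). That call was lost under 5 of 21 alternatives, with an adjusted p of up to 0.241, and within cohorts the difference was -0.75 and -0.38 in cohorts 4 and 3 and 0.38 in cohort 1, which had 1 mouse on CD. In PWK/PhJ Cebpb was low on both diets, 23.4 to 39.4 CPM on CD and 26.8 to 43.9 on WD.

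Foxa3, which binds the regulatory regions of glucose-handling genes, was lower on WD in 3 strains too. In A/J the 5 mice on CD ran from 51.5 to 79.6 CPM (median 59.3) and the 6 on WD from 27.4 to 44.8 (median 35.7). The A/J groups did not overlap, with a log2 fold change of -0.78 ± 0.18 (adjusted p = 0.00156). In DBA/2J it ran from 43.5 to 78.7 CPM on CD (median 70.8) and from 37.6 to 54.9 on WD (median 45.6), with overlap (-0.45 ± 0.16, adjusted p = 0.0406). In C57BL/6J it ran from 45.9 to 72.4 CPM on CD (median 50.5) and from 17.6 to 63.01 on WD (median 29.1), with a log2 fold change of -0.73 ± 0.15 (adjusted p = 5.64e-05).

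The C57BL/6J difference in Foxa3 came apart by cohort. In cohort 1, the 3 mice on CD had 47.7 to 72.4 CPM and the 5 on WD 17.6 to 29.4, a difference of -1.21 in mean log2 CPM. In cohort 2, the 5 mice on CD had 45.9 to 53.5 CPM and the 3 on WD 41.3 to 63.01, a difference of -0.04. Hnf4a and Prox1 split the same mice. On WD, Hnf4a was 407 to 551 CPM in cohort 1 and 728 to 960 in cohort 2, and the differences from CD were -0.30 and 0.53. Prox1 was 109 to 150 CPM on WD in cohort 1 and 189 to 296 in cohort 2, with differences of -0.48 and 0.57. Over both cohorts, neither Hnf4a (0.02 ± 0.11, adjusted p = 0.934) nor Prox1 (-0.05 ± 0.15, adjusted p = 0.864) passed in C57BL/6J. Cebpb rose alike in both, by 0.79 and 0.76. The difference between cohorts was not tested.

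**Figure D3:**
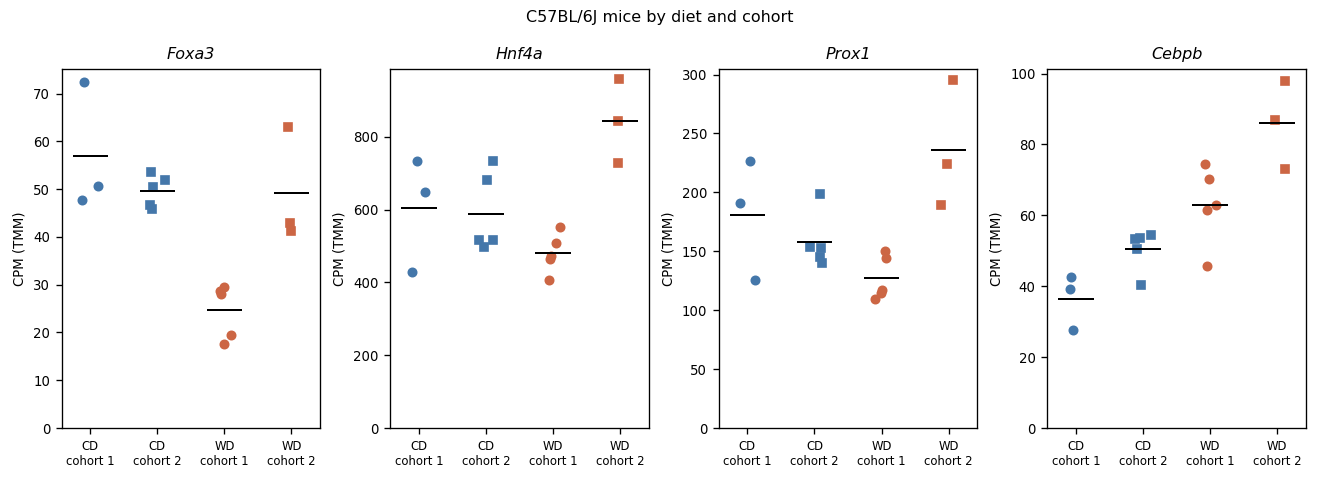
Foxa3, Hnf4a, Prox1, and Cebpb in the 16 C57BL/6J mice, in CPM on a linear axis (y), by diet and cohort (x). Each point is a mouse (circles cohort 1, squares cohort 2) and black lines are means. On WD, Hnf4a was 407 to 551 in cohort 1 and 728 to 960 in cohort 2.

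In 129S1/SvImJ, the partner factors Foxa1 and Foxa2 rose on WD. Foxa2 ran from 13.2 to 25.6 CPM on CD (median 19.6) and from 20.3 to 61.4 on WD (median 41.0). Only the lowest mouse on WD lay within the range on CD, and the log2 fold change was 1.01 ± 0.22 (adjusted p = 0.000292). Foxa1 ran from 18.0 to 26.5 CPM on CD (median 20.3) and from 18.4 to 49.8 on WD (median 30.3), again with the lowest mouse on WD within the range on CD (0.61 ± 0.17, adjusted p = 0.00506). Neither gene passed in the other 6 strains, where Foxa2 ran from -0.16 in PWK/PhJ to 0.41 in CAST/EiJ and Foxa1 from -0.17 in DBA/2J to 0.13 in C57BL/6J.

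Onecut1 rose in 129S1/SvImJ as well, with a log2 fold change of 1.43 ± 0.52 (adjusted p = 0.0287). On CD it ran from 3.50 to 43.1 CPM with a median of 10.8, and on WD from 25.3 to 35.4 with a median of 25.9. One mouse on CD, at 43.1 CPM, was above all mice on WD, and the next on CD had 13.4. With edgeR and with DESeq2, Onecut1 did not pass, and over all alternatives its adjusted p ran from 0.00454 to 0.147. In WSB/EiJ the log2 fold change was -1.10 ± 0.56 (adjusted p = 0.238), from a median of 26.8 CPM on CD to 10.6 on WD. The SE of Onecut1 was between 0.45 and 0.65 in all 7 strains, the widest of the members.

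Hnf4a and Prox1 were lower on WD in 129S1/SvImJ. Hnf4a ran from 552 to 687 CPM on CD (median 598) and from 416 to 567 on WD (median 488), with a log2 fold change of -0.31 ± 0.12 (adjusted p = 0.0387). It did not pass with upper-quartile factors or with either other filter on low counts, where its adjusted p reached 0.0982. Prox1 ran from 143 to 230 CPM on CD (median 199) and from 103 to 202 on WD (median 133), with a log2 fold change of -0.53 ± 0.16 (adjusted p = 0.0110). In the same mice 7 of 8 macrophage and myeloid markers rose, and their sum went from 185 to 307 CPM on CD to 407 to 575 on WD. Of 8 hepatocyte markers, 4 fell in this strain, and 0 of 5 cholangiocyte markers passed. The 4 lymphatic endothelial markers, of cells that also express Prox1, summed to 43.7 to 50.8 CPM on CD and 53.1 to 68.4 on WD. Of the 4, 1 was at 0 in every mouse. Of the 3 tested, 1 passed (28.0% of all genes did), Lyve1, at 5.10 ± 1.38 CPM (SD) on CD and 14.3 ± 3.95 on WD. Whether this sum follows the cells that express Prox1 was not tested. In bulk tissue, fewer hepatocytes and less RNA per hepatocyte cannot be told apart, and the part of either in the falls of Hnf4a, Prox1, and Cebpa was not tested.

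Zhx2, the repressor of fetal genes, rose in WSB/EiJ, from a range of 14.8 to 24.7 CPM on CD (median 20.0) to 21.4 to 28.8 on WD (median 25.9). The ranges overlapped, and the log2 fold change was 0.35 ± 0.10 (adjusted p = 0.0120). A separate fit of WSB/EiJ alone gave an adjusted p of 0.0781. Among 4 genes that ZHX2 is known to act on, 2 passed in 129S1/SvImJ (28.0% of all genes), 3 in PWK/PhJ (29.6%), and 1 in WSB/EiJ (8.94%). In C57BL/6J (26.2%), DBA/2J (18.0%), and CAST/EiJ (19.5%) 1 each passed, and in A/J (9.03%) 0. Gpc3, the gene of the oncofetal proteoglycan glypican 3, fell by 0.82 ± 0.27 in WSB/EiJ on the log2 scale (adjusted p = 0.0420 by limma). Its level there was low, 2.43 ± 0.46 CPM (SD) on CD and 1.60 ± 0.76 on WD. In the same strain Afp (-0.22), H19 (0.39), and Lpl (0.63) did not pass. In 129S1/SvImJ Gpc3 rose, by 0.67 ± 0.27 (adjusted p = 0.0493 by limma). Afp rose in DBA/2J (0.65 ± 0.14, adjusted p = 0.000489), CAST/EiJ (0.46 ± 0.11, adjusted p = 0.00172), and PWK/PhJ (0.40 ± 0.15, adjusted p = 0.0398). In PWK/PhJ, where Zhx2 had a log2 fold change of 0.07 ± 0.09, H19, an imprinted fetal RNA, rose by 4.71 ± 0.65 (adjusted p = 1.15e-08) and Lpl, lipoprotein lipase, by 2.64 ± 0.37 (adjusted p = 2.21e-08). In the PWK/PhJ mice 7 of 8 macrophage and myeloid markers rose too, from a sum of 45.4 to 301 CPM on CD to 279 to 413 on WD. Their part in the rise of Lpl was not tested.

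Averaged over the 7 strains, 5 of 9 members passed, where 51.6% of all genes did. Cebpa (-0.32 ± 0.04, adjusted p = 3.33e-09), Foxa3 (-0.38 ± 0.06, adjusted p = 1.62e-07), and Hnf4a (-0.16 ± 0.04, adjusted p = 0.00196) were lower on WD, and each was lower in 6 of 7 strains by sign. Foxa2 was higher (0.24 ± 0.08, adjusted p = 0.0111 by limma), in 5 of 7 strains by sign. Within strains Foxa2 passed only in 129S1/SvImJ (1.01), whose effect was 0.89 above the mean of the other 6. Zhx2 (0.08 ± 0.03) had an adjusted p of 0.04995, and under 15 of the 20 alternatives it did not pass. Without C57BL/6J CD replicate 2 its adjusted p was 0.0985.

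Whether the diet effect differed between strains was asked with an F test, which 37.5% of all genes passed. It passed for Cebpa (F = 5.24, adjusted p = 0.00117), Zhx2 (F = 3.92, adjusted p = 0.00817), Foxa3 (F = 3.798, adjusted p = 0.00982), Cebpb (F = 3.64, adjusted p = 0.0125), and Foxa2 (F = 3.03, adjusted p = 0.0313). Hnf4a had an F of 0.965 (adjusted p = 0.549), and the effects of Prox1 (adjusted p = 0.0507, and 0.0463 without C57BL/6J CD replicate 2), Foxa1 (0.121), and Onecut1 (0.127) did not pass.

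When the effect in a single strain was set against the average effect in the remaining strains, 7 of 63 passed. Of these 7, 4 passed under every one of 20 alternatives and 3 were lost under some. In 129S1/SvImJ, where 6.28% of all genes passed, the effects of Foxa2 (0.89 ± 0.24 above the others, adjusted p = 0.0143) and Foxa1 (0.62 ± 0.19, adjusted p = 0.0316) differed. In DBA/2J (7.77% of all genes), Cebpa fell further than in the other strains (-0.55 ± 0.13, adjusted p = 0.00348). In C57BL/6J (4.69%), its effect was 0.40 ± 0.12 above the others (adjusted p = 0.0304), and 0.25 without replicate 2 on CD (adjusted p = 0.0941). In CAST/EiJ (14.5%), Cebpb was below (-0.76 ± 0.22, adjusted p = 0.0132) and Foxa3 above the other strains (0.50 ± 0.16, adjusted p = 0.0266). In PWK/PhJ (16.3%), the effect of Prox1 was 0.50 ± 0.18 above the others (adjusted p = 0.0431). In A/J (0.466% of all genes) and WSB/EiJ (0.947%), 0 of 9 members passed.

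The strains were next compared on CD alone. All 9 members passed the F test between strains, as did 93.7% of all genes tested. The smallest adjusted p-values were those of Cebpb (F = 13.6, adjusted p = 2.63e-10), Cebpa (F = 13.1, adjusted p = 5.02e-10), and Foxa3 (F = 12.0, adjusted p = 2.46e-09). For Hnf4a (F = 4.44, adjusted p = 0.000739) the call rested on WSB/EiJ: over the other 6 strains F was 0.55 (adjusted p = 0.739), and 0.56 with cohort as a term (adjusted p = 0.738). Onecut1 passed over those 6 strains (F = 2.84, adjusted p = 0.0240) but not with cohort as a term (F = 2.39, adjusted p = 0.0532). In the order of mean levels, each strain overlapped its neighbor within 1 SD for every member, so the contrasts below are of a strain with the mean of the others.

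WSB/EiJ stood at the top of the order for Hnf4a, Cebpa, Foxa3, and Onecut1, and 6 of 9 members were higher than in the mean of the other 6 strains (49.2% of all genes passed in WSB/EiJ). Hnf4a ran from 746 to 954 CPM in WSB/EiJ on CD (median 834), and the medians of the other strains on CD lay between 574 and 690. The difference was 0.46 ± 0.09 on the log2 scale (adjusted p = 3.33e-05). Foxa3 ran from 71.1 to 97.3 CPM (median 87.8) and differed by 0.79 ± 0.13 (adjusted p = 1.82e-07). Cebpb (0.70 ± 0.17), Cebpa (0.41 ± 0.10), Onecut1 (1.08 ± 0.39), and Prox1 (0.31 ± 0.13, adjusted p = 0.0459) were higher too. In the same mice, 15 of 23 textbook hepatocyte genes that these factors bind were higher and 0 lower, with a list median of 0.29. The list of 8 hepatocyte markers shares Alb, Ttr, Cps1, Apob, and Tat with these 23 genes. Of 8 hepatocyte markers 4 were higher, and of 8 macrophage and myeloid markers 3 were lower (list median -0.37). Their part in these levels was not tested.

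**Figure D4:**
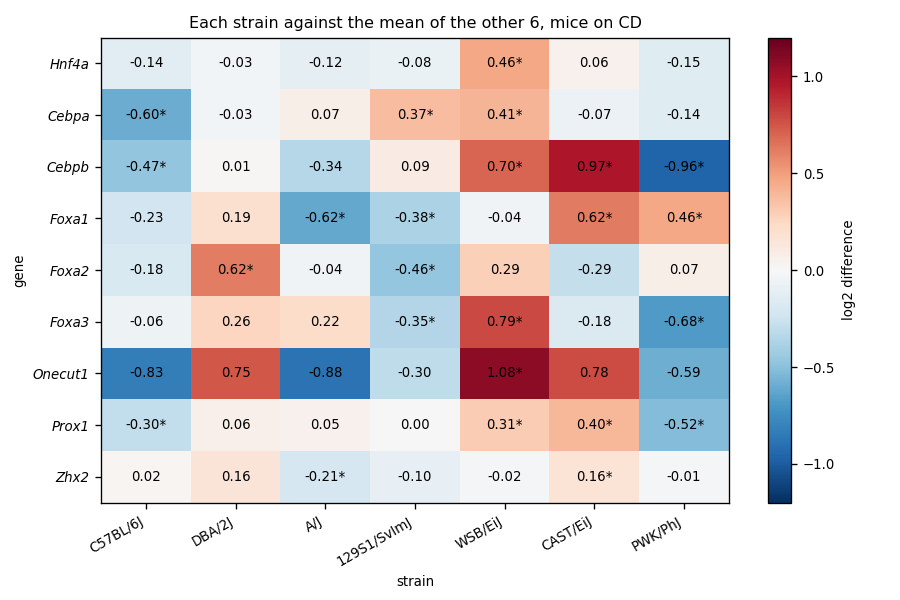
Log2 difference of each strain (x axis) from the mean of the other 6 on CD, for each gene (y axis), by color and as a printed value. An asterisk marks an adjusted p below 0.05 by limma-voom over all genes. WSB/EiJ has 6 asterisks, all for higher levels, and C57BL/6J has 3, all for lower levels.

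C57BL/6J was the strain with the lowest Cebpa, with a median of 357 CPM on CD against 436 to 577 in the other strains. Cebpa (-0.60 ± 0.08, adjusted p = 2.44e-09), Cebpb (-0.47 ± 0.15, adjusted p = 0.00697), and Prox1 (-0.30 ± 0.12, adjusted p = 0.0227) were lower than in the other strains (57.9% of all genes passed). Without replicate 2, whose Cebpa was 144 CPM, Prox1 did not pass (-0.25, adjusted p = 0.0807). Of the 23 textbook hepatocyte genes, 16 were lower and 0 higher in C57BL/6J. The 8 hepatocyte markers share Alb, Ttr, Cps1, Apob, and Tat with these 23 genes. In the same contrast 6 of 8 hepatocyte markers were lower. Higher were 7 of 8 macrophage and myeloid markers (list median 0.94), 5 of 5 cholangiocyte markers (0.89), and 3 of 5 stellate cell markers (0.38). The cholangiocyte markers of C57BL/6J on CD summed to 12.5 CPM at the median and 68.8 CPM in the highest mouse. These counts were not redone without replicate 2. The part of the markers in the lower levels of Cebpa, Cebpb, and Prox1 was not tested.

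PWK/PhJ was the lowest strain for Cebpb (-0.96 ± 0.18, adjusted p = 2.11e-06), Foxa3 (-0.68 ± 0.13, adjusted p = 4.26e-06), and Prox1 (-0.52 ± 0.13, adjusted p = 0.000410), and it was higher for Foxa1 (0.46 ± 0.13, adjusted p = 0.00234). Those were 4 of its 9 members, where 58.6% of all genes passed. Without C57BL/6J replicate 2, Cebpa was lower in PWK/PhJ as well (-0.18, adjusted p = 0.0295). CAST/EiJ was the highest strain for Cebpb (0.97 ± 0.16, adjusted p = 2.82e-07) and Foxa1 (0.62 ± 0.13, adjusted p = 1.54e-05), and Prox1 (0.40 ± 0.12) and Zhx2 (0.16 ± 0.07, adjusted p = 0.0321, and 0.0544 without C57BL/6J replicate 2) were higher as well, 4 of 9 members against 63.9% of all genes. Cebpb thus had opposite extremes in these wild-derived strains, at 23.4 to 39.4 CPM in PWK/PhJ and 48.2 to 207 in CAST/EiJ on CD, without overlap.

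In 129S1/SvImJ, all 3 Foxa genes were low on CD: Foxa2 (-0.46 ± 0.17), Foxa1 (-0.38 ± 0.13), and Foxa3 (-0.35 ± 0.12), whereas Cebpa was high (0.37 ± 0.09), so 4 of 9 members passed (44.2% of all genes). In A/J, Foxa1 (-0.62 ± 0.16, adjusted p = 0.00104) and Zhx2 (-0.21 ± 0.08, adjusted p = 0.0378) were lower, 2 of 9 members against 36.7% of all genes. The A/J mice on CD held Foxa1 between 17.6 and 18.8 CPM, the narrowest range of the gene in any group. Zhx2 in A/J did not pass without replicate 1, 2, 4, or 5 on CD. DBA/2J had 1 member past the threshold, Foxa2, which was higher (0.62 ± 0.17, adjusted p = 0.00227), where 42.3% of all genes passed. With cohort as a term shared between strains and WSB/EiJ left out, 15 of 54 differences between a strain and the others passed, and 20 of 54 without that term. Leaving out WSB/EiJ alone lost Foxa3 in 129S1/SvImJ (-0.23 ± 0.13, adjusted p = 0.138) and Prox1 in C57BL/6J (-0.24 ± 0.12, adjusted p = 0.0758). The cohort term also lost Cebpb in C57BL/6J (-0.24 ± 0.17, adjusted p = 0.260), Foxa1 in 129S1/SvImJ (-0.39 ± 0.17, adjusted p = 0.0585), and Zhx2 in CAST/EiJ (0.16 ± 0.08, adjusted p = 0.0640). Foxa3 in DBA/2J passed both without the term (0.40 ± 0.13, adjusted p = 0.0117) and with it (0.48 ± 0.17, adjusted p = 0.0176), and so did Onecut1 in CAST/EiJ (0.98 ± 0.39, adjusted p = 0.0224, and 1.25 ± 0.43, adjusted p = 0.00859).

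Mice of the same strain and diet also differed, and members could move together among them. Deviations of log2 CPM from the group mean were correlated over 93 mice for the 36 pairs of members, with 100000 permutations within groups and adjustment over 36 pairs. By Pearson's r, 11 pairs passed, 8 positive, and 8 pairs passed by Spearman's rho. Foxa1 and Foxa2 were the closest pair (r = 0.73, adjusted permutation p = 0.00036; rho = 0.71, adjusted permutation p = 0.00018), with a positive r in 7 of 7 strains. Without the 2 mice farthest from the median of Foxa1, r was 0.73, and with deviations from the mean of the cohort it was 0.76. Onecut1 moved with Foxa1 (r = 0.42, adjusted permutation p = 0.00036; rho = 0.45) and with Foxa2 (r = 0.32, adjusted permutation p = 0.0063; rho = 0.37), also positive in 7 of 7 strains. Without the 2 farthest mice these were 0.40 and 0.35.

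Hnf4a moved with Foxa3 (r = 0.50; rho = 0.43), Prox1 (r = 0.47; rho = 0.37), and Cebpb (r = 0.42; rho = 0.33), each with an adjusted permutation p of 0.00166 for r. Without the 2 farthest mice r was 0.44, 0.39, and 0.37. Without C57BL/6J, whose WD mice differed by cohort, r fell to 0.24 for Foxa3 and 0.18 for Prox1. With deviations taken from cohort means, Foxa1 with Foxa2 and Foxa1 with Onecut1 passed (adjusted permutation p = 0.0477 for the latter), and the other 9 pairs did not. Without C57BL/6J CD replicate 2, 10 pairs passed: Foxa1 with Cebpa (r = 0.15) and Hnf4a with Zhx2 (r = 0.25) were lost, and Foxa1 with Cebpb (r = -0.31) passed. The negative pairs over all mice were Foxa2 with Cebpb (r = -0.38), Foxa2 with Prox1 (r = -0.30), and Onecut1 with Prox1 (r = -0.28).

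**Figure D5:**
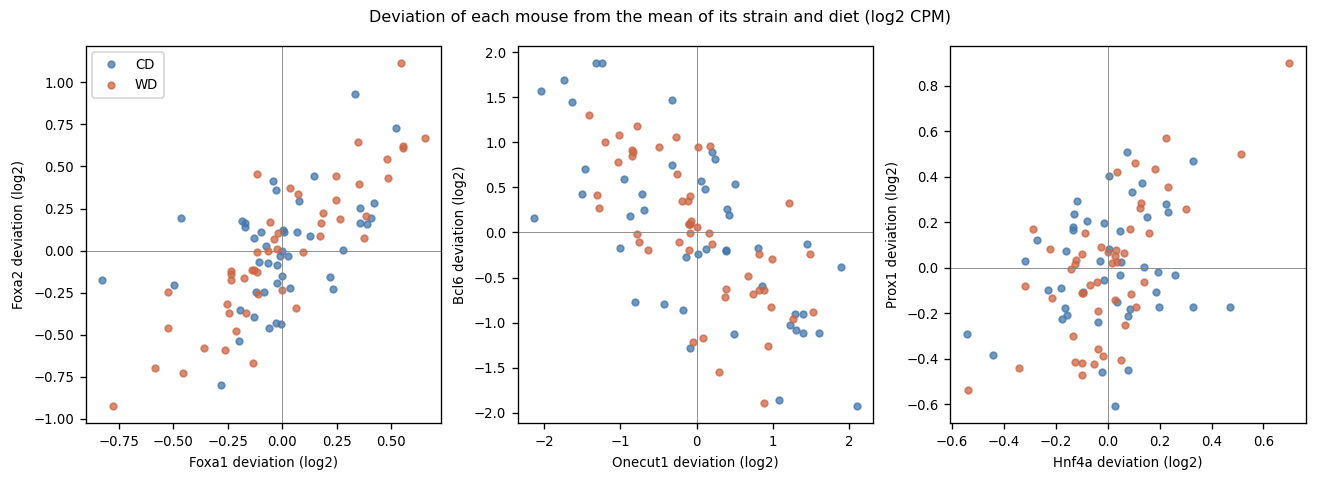
Deviation of each of 93 mice from the mean of its strain and diet, in log2 CPM on both axes, for Foxa1 and Foxa2, Onecut1 and Bcl6, and Hnf4a and Prox1. Blue points are mice on CD and orange points mice on WD. The r is 0.73, -0.68, and 0.47 from left to right, and in the right panel a C57BL/6J mouse on WD lies at the top right.

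The wide spread of Onecut1 within groups was set beside genes of the growth hormone response. They were picked for this after their values were seen, so they are given without a test. Growth hormone reaches the male liver in pulses, signals through STAT5, induces Cish, Socs2, and Igf1, and represses Bcl6. Over the deviations of 93 mice, Onecut1 had an r of -0.68 with Bcl6, the lowest of 11149 genes, 0.58 with Cish, 0.52 with Socs2, and 0.43 with Igf1. In every strain the r was negative with Bcl6, from -0.84 to -0.55, and positive with the other 3 genes. The highest r of Onecut1 among all genes compared were with Vgll4 (0.70), Gm7652 (0.70), and Zfp655 (0.68), above that with Cish. Foxa2 (0.74) and Foxa1 (0.63) also moved with Cish but had an r of 0.11 and 0.06 with Socs2. Prox1 had an r of 0.55 with Bcl6 and -0.43 with Cish, opposite in sign to Onecut1, but 0.16 with Socs2 and 0.21 with Igf1. Cish itself ran from 1.05 to 39.9 CPM and Bcl6 from 9.42 to 156. Cohorts differed within groups: in DBA/2J on CD, Onecut1 ran from 4.55 to 22.4 CPM in cohort 4 and from 24.6 to 46.3 in cohort 5. No r with deviations from cohort means is given for the growth hormone genes. Over the deviations from group means, RNA integrity had an r between -0.10 and 0.14 with the members. The share of unmapped reads had one between -0.06 and 0.24, the highest with Zhx2.

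Among all genes, and given as values only, Foxa2 was nearest within groups to Foxq1, another forkhead gene (r = 0.82), Cebpb to Pim3 (0.82) and Cebpd, which encodes C/EBPδ (0.77), and Foxa1 to Foxa2 and then Hhex (0.65). Over the 14 group means, the genes most like each member were Fbxo8 (0.91) and Psme3 (0.90) for Hnf4a, Bmp10 (0.85) and mt-Tp (0.85) for Cebpa, and Gpcpd1 (0.94) for Cebpb. They were Srd5a1 and Cyp4a12b (both 0.90) for Foxa1, Csrp3 and Aes (both 0.81) for Foxa2, and Hs3st3b1 and Brwd1 (both 0.91) for Foxa3. For Onecut1 they were Hivep1 and Gm7652 (both 0.87), for Prox1 Slc30a1 and Nipbl (both 0.93), and for Zhx2 Saraf (0.81) and Arhgef18 (0.76).

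Other genes of the network were read beside the members. Of 22 other liver transcription factors and cofactors, 12 (against 51.6% of all genes) passed for the mean diet effect and all 12 were lower on WD, with a list median of -0.12 where the median of all genes was 0.01. They included Atf5 (-0.37 ± 0.06), Tbx3 (-0.38 ± 0.11), and Nr5a2 (-0.17 ± 0.04). By strain, 12 of 22 passed in CAST/EiJ (3 higher, 9 lower, against 19.5% of all genes), 6 in 129S1/SvImJ (1 higher, 5 lower, against 28.0%), and 6 in C57BL/6J (3 and 3, against 26.2%). In A/J 3 passed (9.03% of all genes), in PWK/PhJ 3 (29.6%), in DBA/2J 1 (18.0%), and in WSB/EiJ 0 (8.94%). In CAST/EiJ, Hhex, a homeobox factor of the early liver, rose by 1.48 ± 0.43 (adjusted p = 0.00783) and Ppargc1a, a coactivator of gluconeogenesis, had a log2 fold change of -1.11 ± 0.22 (adjusted p = 9.07e-05). Cebpd, the acute-phase relative of Cebpb, moved as Cebpb did, 1.15 ± 0.26 in C57BL/6J and -0.75 ± 0.26 in CAST/EiJ.

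Of 23 textbook hepatocyte genes that these factors are known to bind, 16 passed for the mean diet effect, 14 lower and 2 higher (list median -0.26), against 51.6% of all genes. G6pc, glucose 6-phosphatase, was lower by the widest margin (-1.65 ± 0.15, adjusted p = 1.35e-16), and Alb (-0.58 ± 0.04) and Apoa1 (-0.46 ± 0.04) were lower as well. Cyp7a1, the rate-limiting enzyme of bile acid synthesis, was higher (1.36 ± 0.21, adjusted p = 4.39e-08). PWK/PhJ, with 0 of 9 members past the threshold, had 13 of the 23 genes past it (29.6% of all genes), 12 lower and 1 higher, among them G6pc (-1.76 ± 0.40), Pck1 (-1.44 ± 0.30), and Slc10a1, the bile acid importer (-0.87 ± 0.20). The 8 hepatocyte markers share Alb, Ttr, Cps1, Apob, and Tat with these 23 genes, so their count is in part a recount. In the PWK/PhJ mice 5 of 8 hepatocyte markers fell (list median -0.57), and 7 of 8 macrophage and myeloid (1.08) and 4 of 5 cholangiocyte markers (1.00) rose. Their part in the falls was not tested. In 129S1/SvImJ, with 6 of 9 members past it, 11 genes were lower and 0 higher (28.0% of all genes), among them G6pc, which went from 1236 ± 323 CPM (SD, n = 7) to 148 ± 132 (SD, n = 6).

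Of 9 acute-phase genes, which C/EBPβ is known to induce, 5 rose in C57BL/6J, where 26.2% of all genes passed and Cebpb rose. In CAST/EiJ, where 19.5% of all genes passed and Cebpb fell, 0 of the 9 did. Saa1 and Saa2, the serum amyloid A genes, rose by 3.12 ± 0.68 and 3.52 ± 0.77 in C57BL/6J. They also rose in DBA/2J, 129S1/SvImJ, and PWK/PhJ, where Cebpb had log2 fold changes of 0.22, -0.22, and 0.06. Of 8 macrophage and myeloid markers, 6 rose in C57BL/6J, from a sum of 305 to 591 CPM on CD to 554 to 997 on WD, and 2 rose in CAST/EiJ. Their part in the difference in Cebpb was not tested. Over the mean diet effect, which 51.6% of all genes passed, 6 acute-phase genes were higher and 3, the fibrinogen genes Fga, Fgb, and Fgg, were lower.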

How the data were processed

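The authors deposited raw counts of reads on each gene for 93 livers, made with STAR 2.7.1a on GRCm38 per the submitters' processing notes, after SMARTER libraries and BGISEQ-500 sequencing. The annotation release and strand setting are not given in the sources used here. Symbols, exon lengths, and overlaps came from GENCODE M21. Genes were filtered with filterByExpr (minimum count 10) and libraries scaled by TMM in edgeR (version 4.0.16, under R 4.3.3), and voom in limma (version 3.58.1) fitted a mean for each of 14 groups. P-values were adjusted by Benjamini–Hochberg over 19110 genes in each contrast, with a threshold of 0.05. CPM used TMM factors, RPKM divided it by exon length, and log2 CPM had a prior count of 2. Counts at this depth leave counting error small beside the spread between mice, except in the lowest genes. No label pairs mice, and nothing shows that any 2 libraries are 1 sample: the most alike of 268 pairs within groups had a chi-square of 19.0 per gene.

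Alternatives were edgeR's quasi-likelihood test, DESeq2 1.42.0, upper-quartile factors, both other filters, cohort or RNA integrity as a term, sample weights, separate fits, and mice left out. Leaving out C57BL/6J CD replicate 2, each strain in turn for the correlations, the fit with cohort shared between strains, and differences within cohorts were chosen after seeing the data. The members, the lists, and the motifs were chosen with earlier results of these data known. Named were all members, the counts of each list with up to 3 called genes in a strain, and the 2 genes most like each member over group means, of which 1 is not reported here. Scripts were tested on simulated data.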

Additional observations from a re-analysis of the deposited data

Results flagged for a closer look

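In 10 of 126 groups of a gene and a strain on a diet, the highest or lowest mouse lay far from the rest by Dixon's test at 95%, which chance gives in about 1 of 20. For Onecut1 these were the highest mice of A/J on CD (26.6 CPM, next 10.2), 129S1/SvImJ on CD (43.1, next 13.4), and 129S1/SvImJ on WD (35.4, next 27.3). For Zhx2 they were the highest A/J mouse on CD (21.0) and the lowest A/J mouse on WD (16.9). For Foxa1 they were the highest mice of A/J on CD (18.8) and 129S1/SvImJ on CD (26.5), for Foxa3 the highest of C57BL/6J on CD (72.4), for Cebpa the lowest of PWK/PhJ on CD (309.5), and for Cebpb the highest of 129S1/SvImJ on WD (83.5).

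Diet effects differed between strains by the F test for Cebpa (adjusted p = 0.00117), Zhx2 (adjusted p = 0.00817), Foxa3 (adjusted p = 0.00982), Cebpb (adjusted p = 0.0125), and Foxa2 (adjusted p = 0.0313). By limma's test of 1 strain against the mean of the other 6, the log2 effect of Cebpa was 0.40 above the others in C57BL/6J and -0.55 from them in DBA/2J. Foxa2 (0.89) and Foxa1 (0.62) stood above in 129S1/SvImJ, Cebpb (-0.76) below and Foxa3 (0.50) above in CAST/EiJ, and Prox1 (0.50) above in PWK/PhJ.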

How the results depend on the processing

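No tested value of a member changed sign past the threshold under any alternative. Of the 14 diet effects within strains, 9 passed under every one of 21 alternatives and 5 were lost under some: Cebpb in C57BL/6J and CAST/EiJ, Hnf4a and Onecut1 in 129S1/SvImJ, and Zhx2 in WSB/EiJ. The total ran from 12 to 17 over all alternatives, and 13 of the 14 had the same sign in every cohort. That count is of signs only and includes Foxa3 in C57BL/6J, at -1.21 in cohort 1 and -0.04 in cohort 2. With sample weights, 12 effects of 1 strain against the other 6 passed in place of 7. Of those 7, 3 were lost under some of the 20 alternatives. Of the 5 members past the F test of diet effects, 4 passed under every one of 19 alternatives and 1 was lost under some. With cohort shared between strains and WSB/EiJ left out, 15 differences between a strain and the others on CD passed in place of 24 (of 54 in place of 63 tests). With deviations from cohort means, 2 pairs of members passed in place of 11, and removing between-cohort differences is what this alternative does. Without each A/J mouse in turn the counts were 14 to 14, 4 to 6, 5 to 6, 7 to 7, 8 to 9, and 22 to 24 in the order of diet within strains, mean diet effect, F test of diet effects, diet effect of 1 strain, F test on CD, and 1 strain on CD. No paired analysis was possible because no label pairs mice across the groups. Onecut1, at up to a 37.6-fold range between mice, is the member whose differences these groups resolve least.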
